A study of Rattus norvegicus with 6 samples.

Results

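The genes described here mark the endothelium of the liver: Stab1, Stab2, Lyve1, Pecam1, Kdr, Flt4, Tek, Eng, Fcgr2b and Vwf. These 10 genes were taken by name from a table of 30957 genes measured by RNA-seq in 6 rat livers. The table rows gave 9 of the 10. Pecam1 matched no row by its symbol or an older one and was not analysed here. All 9 genes with a row had enough reads to pass the filter on low counts and were among the 12210 genes tested.

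The livers came from female Sprague Dawley rats bought at 3 weeks of age and kept under specific pathogen-free conditions. Rats of both groups received 3 courses of oral antibiotics, each lasting 7 days with 2-day intervals, which the study calls pseudo germ-free. They were then gavaged daily for 14 days with faecal microbiota from donor rats. Donors of the t-PBS group were injected with phosphate buffer saline, and donors of the t-DHEA group with dehydroepiandrosterone, an androgen precursor, at 6 mg/100 g bodyweight, over 35 days in all that ran on through the transfer. The recipients were not injected with DHEA, but its sulphate in the transplant was, per the study, passed on with the microbiota. The study did not detect DHEA itself in donor faeces and called the sulphate levels very low. It considered that neither compound may be relevant to the effect of the transfer. Faecal pellets were pooled before transfer, so the recipients of a group were not independent in the microbiota they received. Liver RNA of 3 rats per group was sequenced, of 6 rats in each group. The comparison addresses whether the microbiota of DHEA-treated donors altered liver expression.

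Liver sinusoids are lined by a specialised, fenestrated endothelium that lacks a continuous basement membrane. These cells clear waste macromolecules and immune complexes from portal blood through scavenger and Fc receptors, and they depend on vascular endothelial growth factor from neighbouring hepatocytes. The larger portal and central vessels are lined by a more ordinary continuous endothelium, which is richer in von Willebrand factor. In whole liver RNA both kinds are mixed with a large excess of hepatocyte RNA, and fewer endothelial cells cannot be told apart from less endothelial RNA per cell.

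Promoter sequence is shown for 4 genes: Kdr and Flt4, the set's vascular endothelial growth factor receptors, and Stab2 and Lyve1, its hyaluronan receptors. Each is the 250 bases before the RefSeq transcription start in the GRCr8 assembly, a later build than the Rnor_6.0 build of the counts, and is read 5′ to 3′ on the strand of the gene. Capitals mark GGAA on either strand (GGAA or TTCC), the core of the motif bound by ETS factors, which regulate many endothelial genes. The windows lie at chr14:32571813-32572062 on the plus strand for Kdr, chr10:34414584-34414833 on the plus strand for Flt4, chr7:23320563-23320812 on the minus strand for Stab2 and chr1:174410978-174411227 on the minus strand for Lyve1.
Kdr: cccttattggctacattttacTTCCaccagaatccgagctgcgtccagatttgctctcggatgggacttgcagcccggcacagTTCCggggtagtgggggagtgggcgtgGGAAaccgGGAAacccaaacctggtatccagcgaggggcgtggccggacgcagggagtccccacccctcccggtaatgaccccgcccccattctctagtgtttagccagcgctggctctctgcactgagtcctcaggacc
Flt4: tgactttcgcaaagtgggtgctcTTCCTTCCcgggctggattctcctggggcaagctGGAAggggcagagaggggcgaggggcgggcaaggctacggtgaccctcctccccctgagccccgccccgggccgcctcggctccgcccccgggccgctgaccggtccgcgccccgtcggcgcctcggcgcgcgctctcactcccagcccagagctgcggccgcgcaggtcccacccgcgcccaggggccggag
Stab2: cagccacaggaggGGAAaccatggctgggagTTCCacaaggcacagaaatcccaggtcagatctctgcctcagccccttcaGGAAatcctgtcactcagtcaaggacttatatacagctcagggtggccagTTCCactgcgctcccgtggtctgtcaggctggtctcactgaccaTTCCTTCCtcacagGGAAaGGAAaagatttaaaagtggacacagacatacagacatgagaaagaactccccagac
Lyve1: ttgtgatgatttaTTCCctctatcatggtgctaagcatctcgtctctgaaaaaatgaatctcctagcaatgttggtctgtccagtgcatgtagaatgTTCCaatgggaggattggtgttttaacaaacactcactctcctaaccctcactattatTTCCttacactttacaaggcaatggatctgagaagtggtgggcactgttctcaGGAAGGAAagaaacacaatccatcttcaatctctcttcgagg

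The core was found 4 times in the Kdr window, 3 times in Flt4, 8 times in Stab2 and 5 times in Lyve1. It is short and common. Of 33465 rat promoters of the same length, 93.2% held at least 1 match, with a median of 3. Promoters of Stab1, with 5 matches, and Eng, with 3, were the other entries that matched, which made 6 of the 10 genes. Those of Pecam1, Tek, Fcgr2b and Vwf had no entry. GATAA, one of the sequences bound by GATA factors such as Gata4 of sinusoidal endothelium, was searched on both strands too. This string was in none (0) of the 6 windows and in 23.5% of all promoters. Other sequences that GATA factors bind were not searched, so the windows cannot be said to lack GATA sites. These matches describe letters and do not show binding.

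Sequencing gave between 12348511 and 14316886 counts per liver, so that 3 counts corresponded to 0.21 to 0.243 CPM, the count scaled by library size. The 9 genes held 769 to 8937 counts each over the 6 livers, well above that floor. CPM values below were scaled by the TMM method. They compare a gene between livers, whereas levels of different genes are compared as FPKM, which divides by transcript length. Group differences are log2 fold changes of t-DHEA over t-PBS from edgeR's quasi-likelihood test, given with their standard error (SE) or 95% interval. A gene was called differentially expressed where it passed both thresholds of the study, 0.05 for the p before adjustment and 1.2 for the fold change. By these criteria 604 of the 12210 genes tested were called, or 4.95%, with 240 higher in t-DHEA (1.97%) and 364 lower (2.98%). At 0.05, 634 genes passed before and 0 after Benjamini-Hochberg adjustment in edgeR's quasi-likelihood test. DESeq2 kept 24 genes after adjustment and edgeR's likelihood-ratio test 28. With 3 livers against 3, an exact permutation test of 1 gene cannot give a p below 0.1. The labels call the libraries replicates of a group, and nothing in them says whether cage or day of collection differed, so the p-values measure the spread between these 6 samples.

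Per length, the endocytic receptors Lyve1 and Fcgr2b were the most abundant. Lyve1, a hyaluronan receptor, had the highest mean level over the 6 livers, 25.7 FPKM with a range of 18.2 to 33.2. Fcgr2b, the inhibitory Fc gamma receptor with which sinusoidal cells take up immune complexes, followed at 23.4 FPKM. Eng, a co-receptor for BMP and TGF-beta ligands, stood at 19.2 FPKM and Kdr, the main signalling receptor for VEGF-A, at 14.7 FPKM. Lyve1 exceeded Fcgr2b in 4 of 6 livers, so these neighbours in the order were not separated. Fcgr2b exceeded Eng, and Eng exceeded Kdr, in 6 of 6 livers.

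A lower tier held the stabilins and the remaining receptors. Stab2, the hyaluronan and heparin scavenger receptor, had a mean of 6.78 FPKM and Stab1, its relative that takes up modified lipoproteins and matrix fragments, 4.54 FPKM. Tek, the angiopoietin receptor, averaged 4.42 FPKM. Flt4, the receptor for VEGF-C and VEGF-D, averaged 4.18 FPKM. Stab1 exceeded Tek in 2 of 6 livers and Tek exceeded Flt4 in 3 of 6, so the order of these 3 genes is not resolved. Kdr did not overlap Stab2 in range. Vwf, the platelet-binding glycoprotein that marks larger vessels, was the lowest at 1.09 FPKM, with every liver below every Flt4 value.

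**Figure D1:**
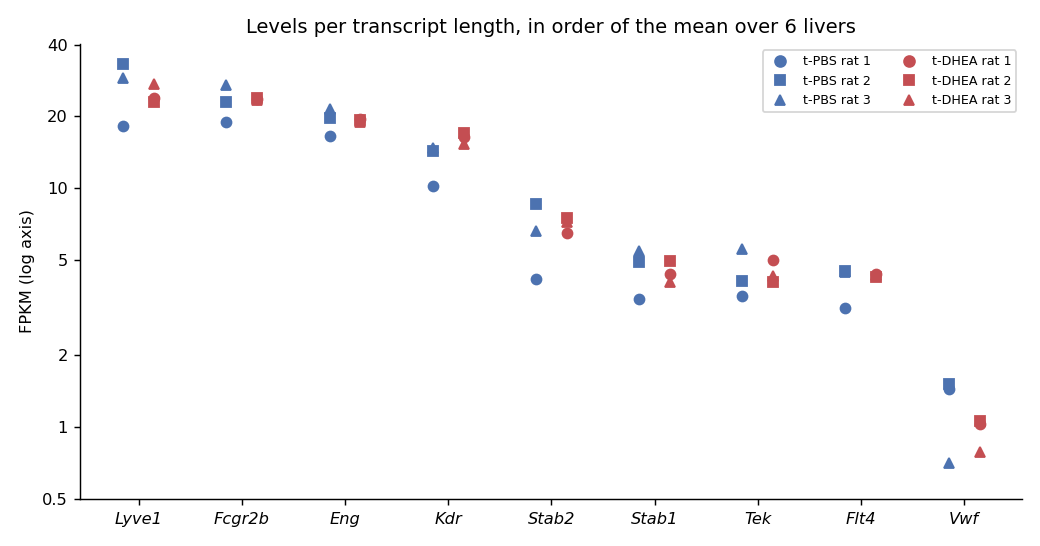
Levels of the 9 endothelial genes in each of the 6 livers in FPKM on a log axis, ordered by the mean. The 4 genes at the left have means of 14.7 to 25.7 FPKM and Vwf, at the right, 1.09 FPKM.

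The label of the group was checked against other endothelial genes. All 14 other sinusoidal genes on a list of their own had a row and 13 were tested. Among them Dnase1l3, a secreted DNase, averaged 23.3 FPKM, Ehd3, a membrane-trafficking ATPase, 22.2 FPKM and Mrc1, the mannose receptor, 19.2 FPKM. The mean levels of all 14 ran from 0.0939 to 23.3 FPKM with a median of 9.86, and Wnt9b, Wnt2, Bmp6, Rspo3 and F8 were at or below 2.15 FPKM. Genes on a list of broader endothelial markers, called pan-endothelial here, ran from 0.228 FPKM (Cldn5) to 51.2 FPKM (S1pr1, a sphingosine-1-phosphate receptor). S1pr1 stood far above the next of them, Clec14a at 11.3 FPKM and Adgrf5 at 7.93 FPKM. Genes of arteries, veins and lymphatics ran from 0.00224 to 19.2 FPKM over the 18 with a row, with a median of 1.01. Prox1 (19.2 FPKM), Ephb4 (11.4 FPKM) and Nr2f2 (11.1 FPKM) were the most abundant, whereas Sele had 1 count in all 6 livers together and Selp, Bmx and Aplnr each had at most 7 counts in any liver.

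VEGF receptors came first in the comparison between groups, since Kdr was the only 1 of the 9 genes that met the criteria. Kdr (chr14:34727623-34787183, Rnor_6.0) measured 79.0, 106 and 113 CPM in the t-PBS livers and 129, 132 and 120 CPM in the t-DHEA livers. Every t-DHEA liver was above every t-PBS liver. The means were 99.2 ± 17.9 and 127 ± 6.65 CPM (SD, n = 3 each), a 1.28-fold difference. In edgeR's quasi-likelihood test the log2 fold change was 0.36 (SE 0.14, 95% interval 0.05 to 0.66), with an adjusted p = 0.957 over all genes. The share of genes called was 4.95% over all genes and 1 of 9 here. Groups that did not overlap were found for 1 of the 9 genes and for 10.1% of all genes tested.

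The Kdr call depended on single livers. Without t-PBS rat 1, the lowest of the 6, the log2 fold change was 0.22 and the call was lost, still with all t-DHEA livers above the remaining t-PBS livers. The call was also lost without t-DHEA rat 1 (0.34) and without t-DHEA rat 2 (0.33), and on FPKM values with limma.

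Flt4 (chr10:35078726-35121599), the other VEGF receptor of the set, read 18.0, 24.9 and 25.5 CPM in t-PBS and 25.4, 24.7 and 24.95 CPM in t-DHEA. All livers but t-PBS rat 1 lay between 24.7 and 25.5 CPM. The log2 fold change was 0.14 with a 95% interval of -0.18 to 0.45 (adjusted p = 0.989), which does not exclude a difference of the size seen for Kdr. Flt1, a VEGF receptor on the pan-endothelial list, overlapped between the groups (0.23, 95% interval -0.22 to 0.69).

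Ligands, co-receptors and downstream genes of these receptors were taken from a list of 23, of which 21 were tested. By the criteria 1 was higher, beside 1.97% of all genes, and none (0) was lower, beside 2.98%. Their median log2 fold change was -0.12, with 7 higher and 14 lower, beside a median of 0.0013 over all genes. Vegfa, which encodes the Kdr ligand, and which hepatocytes also make, averaged 95.7 FPKM. It measured 375, 353 and 304 CPM in t-PBS and 329, 405 and 332 CPM in t-DHEA. The groups overlapped, with a log2 fold change of 0.05 (95% interval -0.24 to 0.33, adjusted p = 0.99). Tgfbr2, the type II TGF-beta receptor, gave -0.03 (95% interval -0.31 to 0.24, adjusted p = 0.99).

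Id1, a transcriptional inhibitor and a BMP target, was the called gene. It measured 5.05, 7.23 and 4.15 CPM in t-PBS and 7.76, 8.68 and 7.11 CPM in t-DHEA, so the groups overlapped slightly. Its log2 fold change was 0.52 (SE 0.21). The call was lost without t-PBS rat 1 (0.46), t-PBS rat 3 (0.36), t-DHEA rat 1 (0.53) or t-DHEA rat 2 (0.44). Other BMP-responsive genes did not share its direction throughout. Smad7, an inhibitory Smad, measured 18.5 to 22.5 CPM in t-PBS and 23.4 to 25.2 CPM in t-DHEA, without overlap, but missed the threshold (0.22, 95% interval -0.02 to 0.47). Id3 measured 51.0 to 58.1 CPM in t-PBS and 40.5 to 50.7 CPM in t-DHEA, also without overlap but in the opposite direction (-0.25, 95% interval -0.50 to 0.01). Over the 21 genes tested in this list, groups did not overlap for 4, with 1 higher and 3 lower in t-DHEA. The share over all genes tested was 10.1%.

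Neither stabilin met the criteria, and both overlapped between the groups. Stab1 (chr16:7222067-7250924) measured 24.5, 33.4 and 38.5 CPM in t-PBS and 31.6, 35.5 and 28.8 CPM in t-DHEA. The t-DHEA values fell inside the t-PBS range, and the means were 32.1 ± 7.10 and 32.0 ± 3.34 CPM (SD, n = 3 each). The log2 fold change was -0.01 with a 95% interval of -0.38 to 0.37 (adjusted p = 0.999).

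Stab2 (chr7:27369853-27552078) measured 31.9, 63.0 and 50.6 CPM in t-PBS and 50.4, 57.7 and 55.4 CPM in t-DHEA. Its lowest and highest livers were both t-PBS, rat 1 and rat 2, and the means were 48.5 ± 15.7 and 54.5 ± 3.69 CPM (SD, n = 3 each). The log2 fold change was 0.17 with a 95% interval of -0.31 to 0.65 (adjusted p = 0.99).

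Like every gene here except Kdr, Lyve1 (chr1:175663266-175676699) had both its lowest and its highest value in t-PBS. It measured 56.4, 98.3 and 89.1 CPM in t-PBS and 75.1, 71.7 and 85.0 CPM in t-DHEA, and the log2 fold change was -0.07 (95% interval -0.50 to 0.35, adjusted p = 0.99). Without t-PBS rat 1 it was -0.28, which met the criteria in the direction of lower t-DHEA.

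Fcgr2b (chr13:89327794-89433815) measured 83.4, 97.1 and 118 CPM in t-PBS and 106, 106 and 103 CPM in t-DHEA. The 3 t-DHEA livers were nearly equal, and the log2 fold change was 0.08 (95% interval -0.21 to 0.37, adjusted p = 0.99). The locus contains the smaller Fcgr3a (chr13:89385859-89396051), which had 433 counts in all against 8106 for Fcgr2b. Whether counting used strand is not given in the sources used here, so reads of the overlap cannot be assigned with certainty.

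Other Fc gamma receptor genes overlapped between the groups. Of 5, 4 were tested, 2 were higher and 2 lower, and 0 met the criteria. Fcgrt, the neonatal Fc receptor, measured 89.8 to 115 CPM in t-PBS and 98.8 to 119 CPM in t-DHEA (0.06, 95% interval -0.21 to 0.34). Fcgr2a was listed at 0 in all livers. B cells also make Fcgr2b, and of 8 B cell genes 4 had enough counts to be tested, with a median of 0.12 and a summed level of 14.2 to 14.9 CPM in t-PBS and 16.9 to 20.6 CPM in t-DHEA. Without Cd22 the sums were 5.54, 6.19 and 6.64 CPM in t-PBS and 9.33, 4.79 and 5.56 CPM in t-DHEA and overlapped. The highest sum, in t-DHEA rat 1, held 4.29 CPM of Fcrla, another of the 4 tested. Fcrla was at 0.561 to 1.51 CPM in all other livers. Cd22, an inhibitory B cell lectin, met the criteria, at 8.08 to 8.70 CPM in t-PBS and 11.3 to 12.1 CPM in t-DHEA (0.46, 95% interval 0.19 to 0.73). It was 1 of the 4 tested, beside 1.97% of all genes called higher. Cd79a, which encodes a chain of the B cell receptor, gave -0.23 (95% interval -0.95 to 0.49), and Ms4a1 and Pax5 had at most 6 counts in any liver. The part of B cells in the Fcgr2b values was not tested.

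Tek (chr5:113725717-113852799) measured 16.3, 17.9 and 25.4 CPM in t-PBS and 23.2, 18.6 and 19.7 CPM in t-DHEA. The t-DHEA livers sat within the t-PBS range. Its log2 fold change was 0.05 with a 95% interval of -0.35 to 0.44 (adjusted p = 0.991).

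Eng (chr3:11679530-11717485) had the smallest SE of the 9 genes, 0.11. It read 64.98, 74.0 and 83.7 CPM in t-PBS and 77.6, 76.6 and 74.8 CPM in t-DHEA. With a log2 fold change of 0.04, its 95% interval ran from -0.20 to 0.28 (adjusted p = 0.99). That interval leaves out a rise of the size estimated for Kdr, 0.36, although the difference between both genes was not tested.

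Vwf (chr4:158088505-158219523) was the gene with the lowest counts, 83 to 182 per liver, and it ordered the livers differently. It measured 12.8, 12.8 and 6.26 CPM in t-PBS and 9.25, 9.50 and 7.03 CPM in t-DHEA. Its lowest liver was t-PBS rat 3, which was the highest liver for Stab1, Flt4, Tek, Eng and Fcgr2b. The log2 fold change was -0.31 with a 95% interval of -0.91 to 0.30 (adjusted p = 0.986). Without t-PBS rat 3 it was -0.57 and met the criteria, so 1 liver decided the call. Platelets carry von Willebrand factor. Of 8 megakaryocyte and platelet genes, only Itga2b was tested, and it stood well above the floor. It measured 14.1 to 19.1 CPM in t-PBS and 14.1 to 15.4 CPM in t-DHEA (-0.23, 95% interval -0.55 to 0.08). The others were near the floor, and Pf4 had at most 8 counts in any liver. The part of platelets in the Vwf values was not tested.

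**Figure D2:**
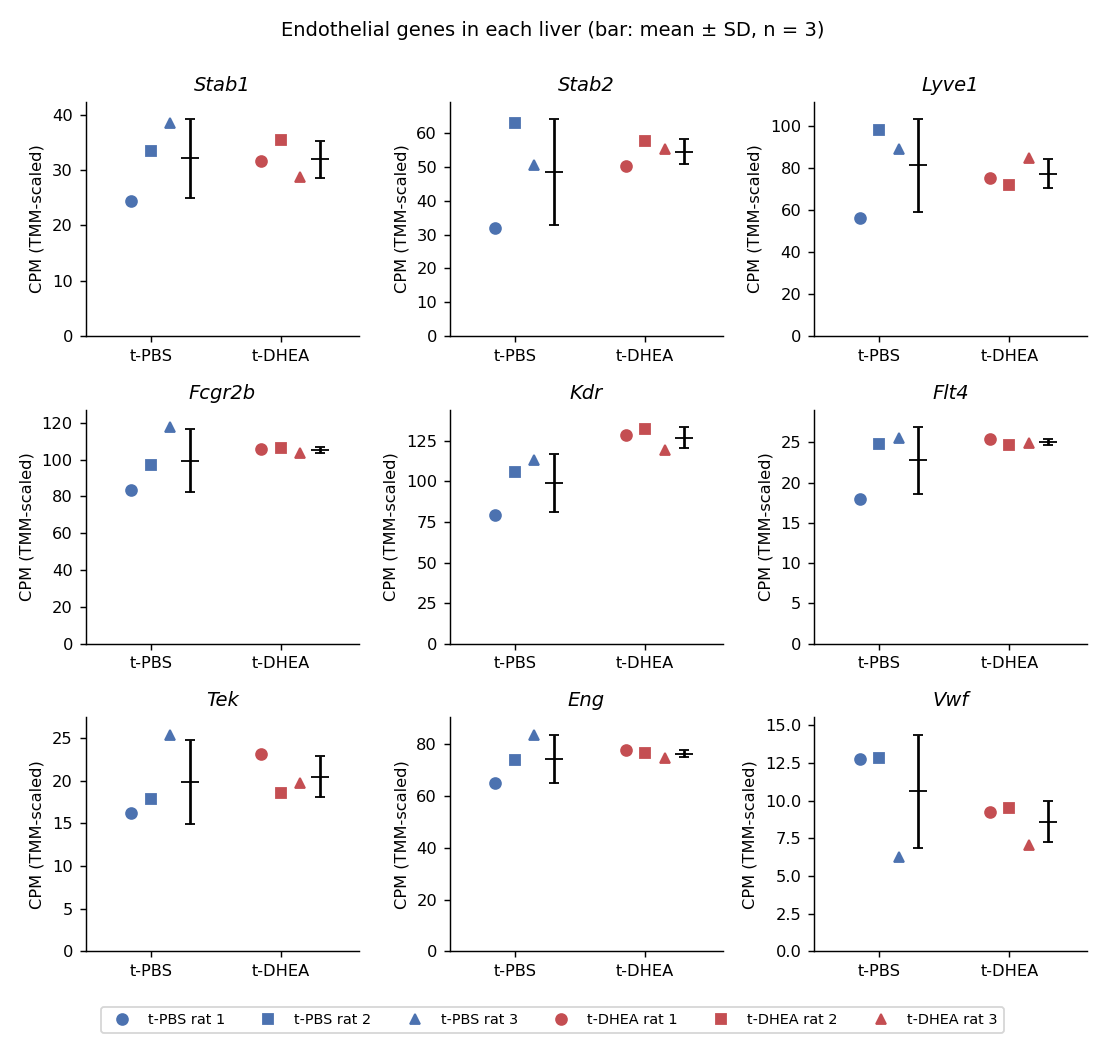
TMM-scaled CPM of each of the 9 genes in the 3 t-PBS livers (blue) and the 3 t-DHEA livers (red), with mean ± SD in black and axes from 0. Kdr is the gene without overlap between groups, and t-PBS rat 1 (blue circle) is the lowest liver in 8 of 9 panels.

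**Figure D3:**
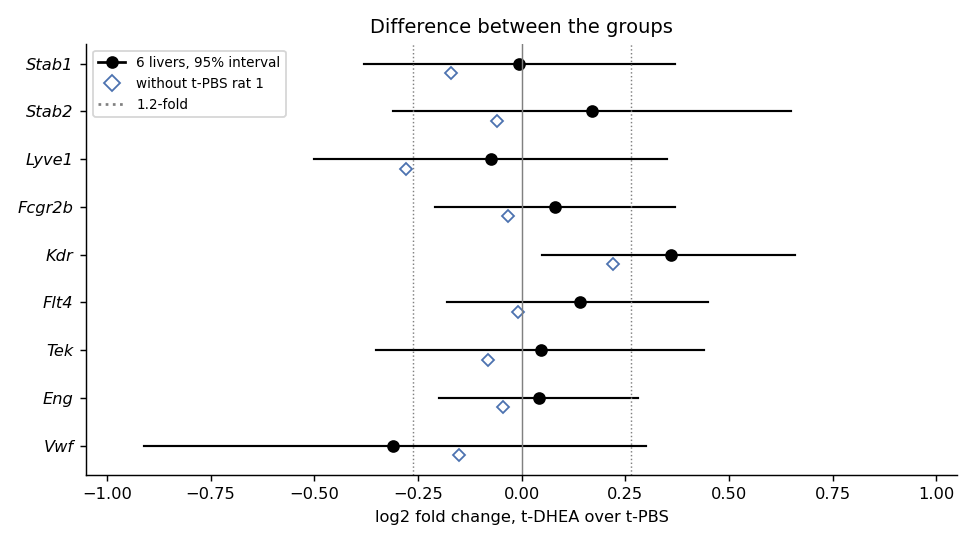
Log2 fold change of t-DHEA over t-PBS for the 9 genes with its 95% interval (black) and the value without t-PBS rat 1 (open diamonds). The interval of Kdr, 0.05 to 0.66, is the one that leaves out 0, and without t-PBS rat 1 all genes but Kdr are below 0.

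Across the 9 genes, 6 were higher and 3 lower in t-DHEA with a median log2 fold change of 0.05. Values of 1 liver stood apart. Rat 1 of the t-PBS group was the lowest of the 6 livers for 8 of 9 genes (all but Vwf), whereas it was the lowest for 14.5% of all genes tested. The summed level of the 9 genes was 387 CPM in that liver and 519 to 550 CPM in the other 5. Without it, 1 of 9 genes was higher in t-DHEA, the median was -0.06 and Lyve1 was the gene called, in place of Kdr. That fit called 556 genes over the whole table, against 604 (4.95% of those tested) with all 6 livers. Its own share of genes tested is not given here. The coefficient of variation (SD over mean) ran from 12.6% to 35.5% in t-PBS and from 1.46% to 15.8% in t-DHEA, and it was larger in t-PBS for 9 of 9 genes beside 46.2% of all genes. Without t-PBS rat 1, which leaves 2 livers against 3, the coefficient ran from 1.86% to 48.6% in t-PBS. It was then the larger in t-PBS for 6 of 9 genes, beside 40.6% of all genes.

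Lists of other genes showed how far the low values of that liver reached. Centred on each gene's mean over the 6 livers, the median log2 CPM in t-PBS rat 1 was -0.37 for the 9 genes, -0.29 for the other sinusoidal genes and -0.23 for pan-endothelial genes. It was -0.03 for genes of arteries, veins and lymphatics, 0.06 for stellate cell genes, 0.03 for Kupffer cell genes, -0.02 for hepatocyte genes and 0.01 for all genes tested. This liver had the largest total, 14316886 counts, and a TMM factor of 0.997. The low median was found in the sinusoidal and pan-endothelial lists and not in those of hepatocytes, Kupffer cells or stellate cells. Not every gene of these lists shared it. Rat 1 of t-PBS was the lowest liver for 12 of the 29 pan-endothelial genes tested. S1pr1 was highest in that liver, at 151 CPM against 110 to 141 CPM in the other 5. Which cells its RNA came from was not tested.

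**Figure D4:**
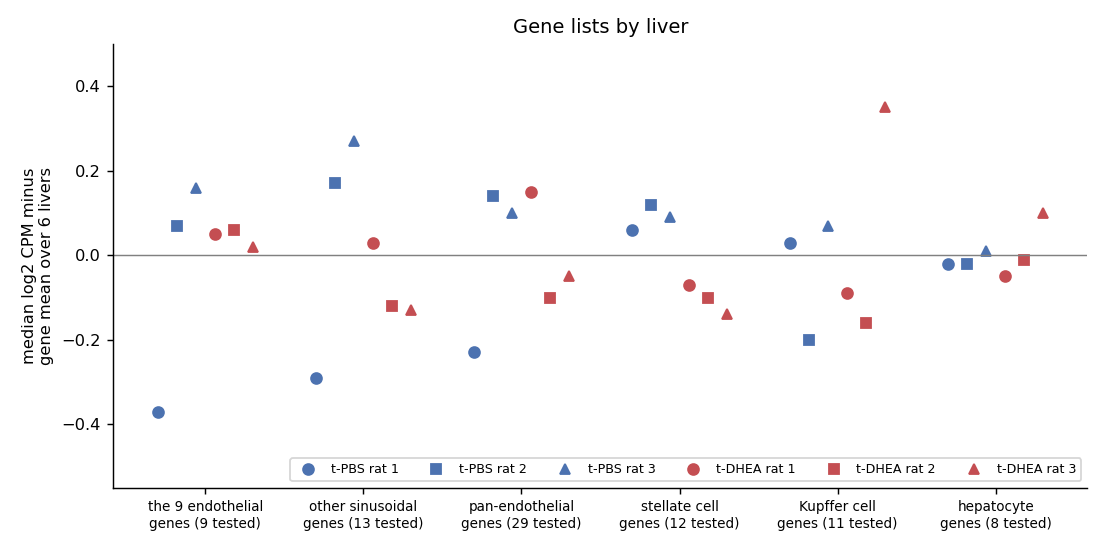
Median over each gene list of log2 CPM minus the gene's mean over the 6 livers, per liver, with the number of genes tested under each list. Rat 1 of t-PBS (blue circle) is lowest in the 3 endothelial lists, at -0.37, -0.29 and -0.23, and near 0 in the hepatocyte, Kupffer and stellate lists.

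The other sinusoidal genes were lower rather than higher in t-DHEA on balance. Of 13 tested, 4 were higher and 9 lower in t-DHEA, the median log2 fold change was -0.11, and t-PBS rat 1 was the lowest liver for 7. Groups did not overlap for 2 of the 13, beside 10.1% of all genes tested. Rspo3, an R-spondin that amplifies Wnt signalling to pericentral hepatocytes, met the criteria, 1 of 13 beside 2.98% of all genes called lower. It measured 7.71, 6.78 and 7.62 CPM in t-PBS and 4.46, 6.21 and 5.64 CPM in t-DHEA, without overlap (-0.44, SE 0.17, 95% interval -0.82 to -0.06). That call was lost without t-PBS rat 1 (-0.40), t-PBS rat 3 (-0.41), t-DHEA rat 1 (-0.32) or t-DHEA rat 3 (-0.46). Mrc1 gave 0.10 (95% interval -0.24 to 0.45), Ehd3 -0.11 (95% interval -0.46 to 0.25) and Dnase1l3 0.05 (95% interval -0.35 to 0.45). Maf, a transcription factor of sinusoidal identity, gave -0.26 (95% interval -0.56 to 0.05) and F8, which encodes coagulation factor VIII, -0.23 (95% interval -0.55 to 0.08). Without t-PBS rat 1, 0 of the 13 were higher in t-DHEA, the median was -0.28, and Bmp2 and Ehd3 were the genes called, both lower. That was 2 of 13. The same fit called 556 genes over the whole table, against 604 (4.95%) with all 6 livers, and its own share is not given here. Without t-PBS rat 2 the median was 0.01, so its direction rested on single livers.

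Pan-endothelial genes numbered 29 tested of 30, with 11 higher, 18 lower and a median of -0.05, which ran from -0.16 to 0.05 when single livers were left out. Lmo2, a transcriptional adaptor of blood and endothelium, was the called gene, 1 of 29 beside 2.98% of all genes called lower, at 5.82 to 6.49 CPM in t-PBS and 4.71 to 4.87 CPM in t-DHEA (-0.36, 95% interval -0.69 to -0.02). Leaving out any 1 of the 6 livers lost that call, while the log2 fold change stayed between -0.40 and -0.32. Esam, a junctional adhesion molecule, was higher in every t-DHEA liver, at 5.51 to 7.64 CPM in t-PBS and 7.96 to 9.99 CPM in t-DHEA, but missed the threshold (0.37, 95% interval -0.02 to 0.76). Groups did not overlap for 3 of the 29, 1 higher and 2 lower, beside 10.1% of all genes tested. S1pr1 was level between groups (0.00, 95% interval -0.29 to 0.29). Nos3, the endothelial nitric oxide synthase, gave -0.29 (95% interval -0.81 to 0.23).

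Genes of arteries, veins and lymphatics were tested for 12 of 19, with 6 higher and 6 lower and a median of -0.005. Pdpn, podoplanin, met the criteria, at 1.12 to 2.06 CPM in t-PBS and 0.374 to 0.85 CPM in t-DHEA (-1.45, 95% interval -2.44 to -0.47). That was 1 of 12 tested, beside 2.98% of all genes called lower. Podoplanin is made by lymphatic endothelium and also by mesothelium. Prox1, a lymphatic factor that hepatocytes also make, gave -0.07 (95% interval -0.32 to 0.18). Ccl21, a chemokine of lymphatic vessels, measured 0.631 to 1.74 CPM in t-PBS and 1.65 to 4.11 CPM in t-DHEA (0.97, 95% interval -0.10 to 2.04).

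Genes of other cells of the organ are given beside these values. Of the mesothelial genes of the liver capsule, 7 of 8 were tested, 7 were lower in t-DHEA and 6 met the criteria, beside 2.98% of all genes called lower, with a median of -1.87. Their summed level was 30.6 to 37.7 CPM in t-PBS and 3.14 to 16.8 CPM in t-DHEA. Rat 2 of t-DHEA was the lowest liver for all 7 tested, and Krt7, Lrrn4 and Wt1 were at 0 there. Of 12 stellate cell genes, 1 was higher and 11 lower, with a median of -0.16 and a summed level of 480 to 514 CPM in t-PBS and 427 to 458 CPM in t-DHEA. Col1a1, a chain of type I collagen, was the called gene (-0.88, 95% interval -1.52 to -0.24), and that call was lost without t-PBS rat 2 (-0.58). It was 1 of 12, beside the same 2.98% of all genes called lower. Of 11 Kupffer cell genes tested, 9 were higher, 2 lower and 0 called, with a median of 0.12 and a summed level of 674 to 842 CPM in t-PBS and 731 to 1006 CPM in t-DHEA. Of 8 hepatocyte genes, 4 were higher and 4 lower, with a median of 0.04. Rat 1 of t-PBS was the lowest liver for 0 of 7 mesothelial and 1 of 12 stellate cell genes. It was the lowest for 8 of the 9 endothelial genes and for 14.5% of all genes tested. The part of these cells in the endothelial values was not tested.

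Ratios within a liver compare endothelial genes with each other and set aside how much endothelial RNA the liver held in all. Among the 36 pairs of the 9 genes, the ratio of FPKM values did not overlap between groups for 6 pairs, beside 9.72% of all pairs of genes with a mean of at least 5 CPM. Kdr was in 5 of these 6. The pairs share genes, so they are not independent, Kdr by itself did not overlap between the groups, and the ratios are descriptions without a test.

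Relative to Stab1, Kdr stood at 2.96, 2.90 and 2.70 in t-PBS and 3.74, 3.43 and 3.81 in t-DHEA, with means of 2.85 ± 0.139 and 3.66 ± 0.202 (SD, n = 3 each). Relative to Flt4, the ratio was 3.26, 3.16 and 3.30 in t-PBS and 3.76, 3.99 and 3.56 in t-DHEA. In both, t-PBS rat 1 lay with the other t-PBS livers, unlike in the single-gene values. The ratio of Kdr to Eng was 0.618, 0.726 and 0.687 in t-PBS and 0.843, 0.879 and 0.813 in t-DHEA. The ratio to Fcgr2b was 0.538, 0.617 and 0.545 against 0.693, 0.708 and 0.657, and that to Lyve1 was 0.561, 0.431 and 0.509 against 0.688, 0.740 and 0.564. Against Stab2, Tek and Vwf the groups overlapped. The mean Kdr ratio was higher in t-DHEA for all 8 genes, by 9.71% (Stab2) to 38.2% (Vwf), and by 16.5% to 32.8% for the 5 whose ratios did not overlap.

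Without t-PBS rat 1, 7 of the 36 pairs did not overlap, 5 of them with Kdr, a share close to the 18.7% of all pairs found when 2 livers are set against 3. The sixth pair over all livers was Lyve1 to Stab2, at 4.36, 3.85 and 4.35 in t-PBS and 3.67, 3.07 and 3.78 in t-DHEA.

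**Figure D5:**
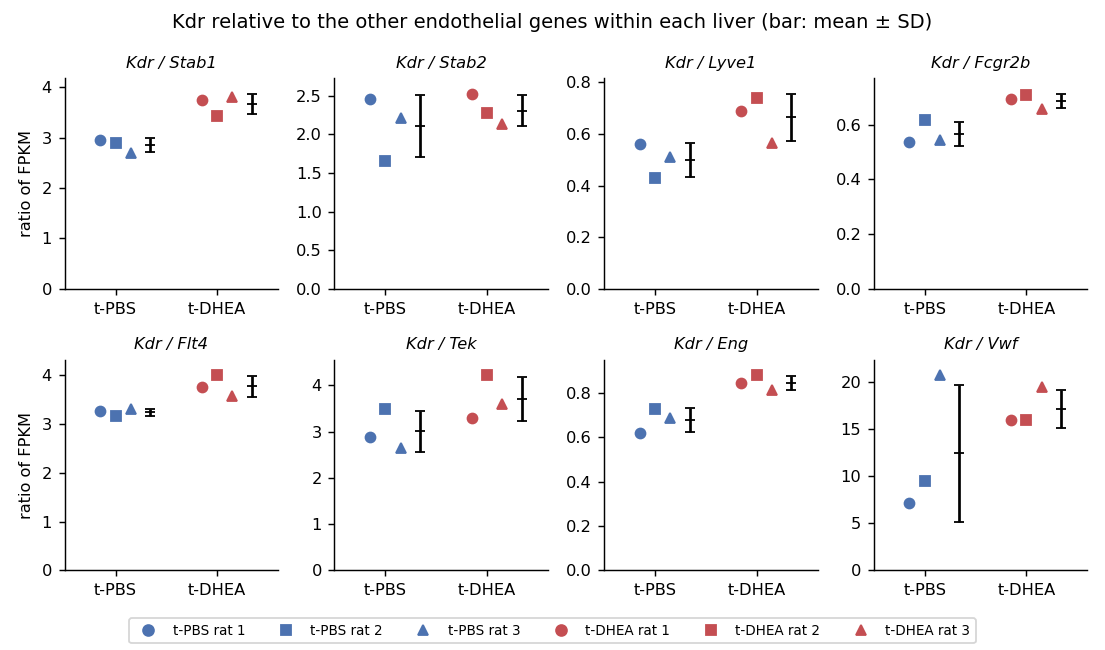
Ratio of Kdr FPKM to that of each of the other 8 endothelial genes, per liver, with mean ± SD in black and axes from 0. The ratios to Stab1, Lyve1, Fcgr2b, Flt4 and Eng do not overlap between t-PBS (blue) and t-DHEA (red), and those to Stab2, Tek and Vwf do.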

How the data were processed

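Total RNA of snap-frozen rat liver was extracted with the RNeasy mini kit and made into paired-end TruSeq libraries. The authors filtered reads with Seqtk, aligned them to Rnor_6.0 and counted fragments per gene, from which they made FPKM. The submitters' processing notes name HISAT2 2.0.4 and StringTie 1.3.0. The deposited table holds raw counts per gene and the authors' FPKM for each liver. Strandedness, annotation release and time of day of collection are not given in the sources used here. The study ran edgeR on FPKM. Here the counts were tested instead, since a count model needs counts, and the study's thresholds were kept.

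Counts were tested in R 4.3.3 with edgeR 4.0.16 (TMM factors, filterByExpr, quasi-likelihood test, Benjamini-Hochberg adjustment over 12210 genes), after the script was tested on simulated data. Intervals are 95%, from the SE and the t quantile at the fit's degrees of freedom. Log2 CPM for the profiles used a pseudocount of 0.5 counts. Every pair of livers differed by more than counting error (chi-square over its degrees of freedom at least 16.2). Depth limits precision through counting error, which FPKM ratios carry too. Alternatives used RLE factors, DESeq2 1.42.0, edgeR's likelihood-ratio test, other filters, limma 3.58.1 on log2(FPKM + 0.1) and log2(FPKM + 1), a replicate block, a fold change of 1.5 and leaving out each liver.

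Named genes were all 10 endothelial genes and, in each other list, genes meeting the criteria plus at most the 3 with the lowest p and the 3 with the highest mean FPKM, with cell type markers from their lists. The genes and lists were chosen with earlier results of these data known. Of 157 list entries, 153 matched by symbol, 1 by an older symbol (Vegfd) and 3 not at all (Pecam1, Ackr1 and Adamts13). Promoters came from RefSeq.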

Additional observations from a re-analysis of the deposited data

How the results depend on the processing

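Over the alternatives that kept all 6 livers, the number of genes called ran from 414 (DESeq2) to 776 (no filter) around 604, and a fold change above 1.5 gave 275. Leaving out each liver in turn gave 514 to 747. Genes with an adjusted p below 0.05 numbered 24 with DESeq2, 28 with edgeR's likelihood-ratio test and 0 to 1 without single livers, against 0. Kdr kept its direction throughout and was called in 6 of 8 settings on all livers and in 3 of 6 without a liver. It missed the threshold with limma on log2(FPKM + 0.1) (0.33) and log2(FPKM + 1) (0.31). The cause was not tested.

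Leave-one-out log2 fold changes ran from 0.22 to 0.46 for Kdr, -0.17 to 0.14 for Stab1, -0.059 to 0.41 for Stab2, -0.28 to 0.089 for Lyve1, -0.0089 to 0.22 for Flt4, -0.08 to 0.26 for Tek, -0.046 to 0.14 for Eng, -0.032 to 0.22 for Fcgr2b and -0.57 to -0.15 for Vwf. Those of Stab1, Stab2, Lyve1, Flt4, Tek, Eng and Fcgr2b changed sign within the range, and 5 of them (Stab2, Flt4, Tek, Eng and Fcgr2b) fell below 0 without t-PBS rat 1. Stab1, at -0.0059, was 0.00085 without a filter. The median of the 9 genes ran from -0.059 to 0.199, that of the other sinusoidal genes from -0.28 to 0.007, and that of the ligands and partners from -0.22 to -0.036. Pdpn had too few reads for the filter of 10 counts in every liver and has no value there.

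The labels give both groups the same replicate numbers, but nothing says that a number marks a shared rat, cage or day. Deviations of same-numbered livers correlated at -0.063 to -0.05, and 0 of 6 livers correlated best with its own number. With the replicate block 539 genes were called and Stab1 was 0.011. The calls of Rspo3 (-0.44) and Lmo2 (-0.36) missed the threshold under the block and also with DESeq2, and that of Lmo2 with edgeR's likelihood-ratio test. The ratios of pairs and the coefficients of variation without t-PBS rat 1, and the B cell sums without Cd22, were added after seeing the data. The 9 genes had at least 83 counts in each liver, the fewest for Vwf, whose values carry the most counting error.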

Other observations

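The genes nearest to the mean profile of the 9 endothelial genes were on none of the endothelial lists. Over the 6 livers, the smallest root mean square distances in centred log2 CPM to the mean profile of the 9 genes, among 8990 genes with a mean of at least 5 CPM, belonged to Echdc1 (0.0366), an ethylmalonyl-CoA decarboxylase, Ggcx (0.0378), the vitamin K-dependent carboxylase, Acbd6 (0.0414), Lrrc42 (0.0418) and Mrps16 (0.0422), a mitochondrial ribosomal protein. The mean profile was -0.30 in t-PBS rat 1 and between -0.01 and 0.10 in the other 5 livers. Of 11 other sinusoidal genes ranked, 3 were among the nearest 10% of all genes, as were 2 of 21 pan-endothelial genes, 2 of 15 ligands and partners, 1 of 7 genes of arteries, veins and lymphatics, 1 of 8 stellate cell genes, 0 of 11 Kupffer cell genes and 0 of 8 hepatocyte genes. The likeness is a description over 6 livers that share 1 low liver. A mean of 9 genes is smoother than a single gene, so this order cannot show whether endothelial markers follow the 9 genes.

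Several vessel genes lay below the filter on low counts and were not tested. Mmrn1, multimerin, which lymphatic and some sinusoidal endothelium make, had 1, 1 and 3 counts in t-PBS and 7, 6 and 8 in t-DHEA, and was picked after its values were seen. Cldn5, the tight junction claudin of continuous endothelium, had 8, 9 and 3 counts in t-PBS and 3, 1 and 2 in t-DHEA. Wnt9b, a Wnt ligand of central vein endothelium, had 12, 5 and 9 counts in t-PBS and 8, 10 and 8 in t-DHEA. Gja5, an arterial connexin, had 9, 8 and 3 against 4, 8 and 5.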
